A study of Rattus norvegicus with 20 samples.

Results

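The genes described here are 39 genes of DNA replication and S phase, chosen by name: the subunits of the replicative helicase and its loaders, the replicative polymerases, the sliding clamp and its loaders, enzymes of deoxynucleotide supply, chromatin factors of the fork, and regulators of the step from G1 into S phase. The choice was made with earlier results of these data known. All 39 were among the 19060 genes of the count table, and all 39 passed the filter on low counts, which left 14794 genes to test. RNA sequencing had been done on rat lung, 5 libraries per group. The CLP+VNS animals had caecal ligation and puncture (CLP, in which the caecum is tied off and pierced so that gut contents leak into the abdomen) together with stimulation of the right cervical vagus nerve (VNS). The CLP animals had ligation and puncture alone, which the submitters use as a model of acute respiratory distress syndrome. The Sham+VNS animals had the abdomen opened and the caecum handled, without injury to it, and were stimulated. The Sham animals had the opened abdomen and handled caecum alone. The sources used here do not give strain, sex, age or the time from operation to sampling. Lung injury in this model follows from infection in the abdomen, and whole lung was sequenced, so every value is an average over resident and incoming cells. In such bulk samples, fewer cells of a type and less RNA per cell cannot be told apart.

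A cell copies its DNA once per division. In G1 the origin recognition complex with Cdc6 and Cdt1 loads the ring of Mcm2 to Mcm7 onto DNA; Cdc45 and the GINS complex then turn the ring into an active helicase, primase with polymerase alpha lays down primers, and polymerases epsilon and delta extend them while held by the Pcna clamp. Transcription of most of these genes is controlled by E2F factors, which RB proteins hold back until G1 cyclin kinases release them. Normal adult lung holds few dividing cells, and some of these proteins, Pcna among them, also serve DNA repair.

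For most of the 39 genes no difference after CLP was larger than the test allows for the spread between animals, and those that were called moved in both directions. In CLP against Sham, 11 of 39 genes (28.2%) were called at an edgeR adjusted p below 0.05, 7 higher and 4 lower, where 40.3% of all tested genes were called, 19.8% higher and 20.5% lower. Among stimulated animals, in CLP+VNS against Sham+VNS, 6 of 39 (15.4%) were called, 3 higher and 3 lower, where 27.3% of all genes were called, 13.9% higher and 13.4% lower. The share of these genes called was thus below that of all genes in both comparisons. The median log2 fold change of the 39 was -0.01 in CLP against Sham, beside -0.01 over all tested genes, and -0.09 in CLP+VNS against Sham+VNS, beside -0.01 over all tested genes. With limma on the deposited TPM, the calls of CLP against Sham were 5 higher and 5 lower, where 41.8% of all genes were called.

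The 6 genes called under stimulation were among the 11 called without it, each in the same direction: Mcm7, Pcna and E2f2 were higher, and Pola2, Tyms and E2f1 were lower. The other 5 calls of CLP against Sham were Rrm2, Uhrf1, Mcm10 and Ccne2, which were higher, and Pold1, which was lower. Values of the 2 groups did not overlap for 8 of the 39 genes in CLP against Sham, 5 higher and 3 lower, where 26.1% of all tested genes had such a gap, 13.4% higher and 12.7% lower. Under stimulation this held for 6 of the 39, 3 in each direction, where it held for 18.9% of all genes, 9.65% higher and 9.23% lower. The plot of fold changes by role shows that no role moved as a block.

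**Figure D1:**
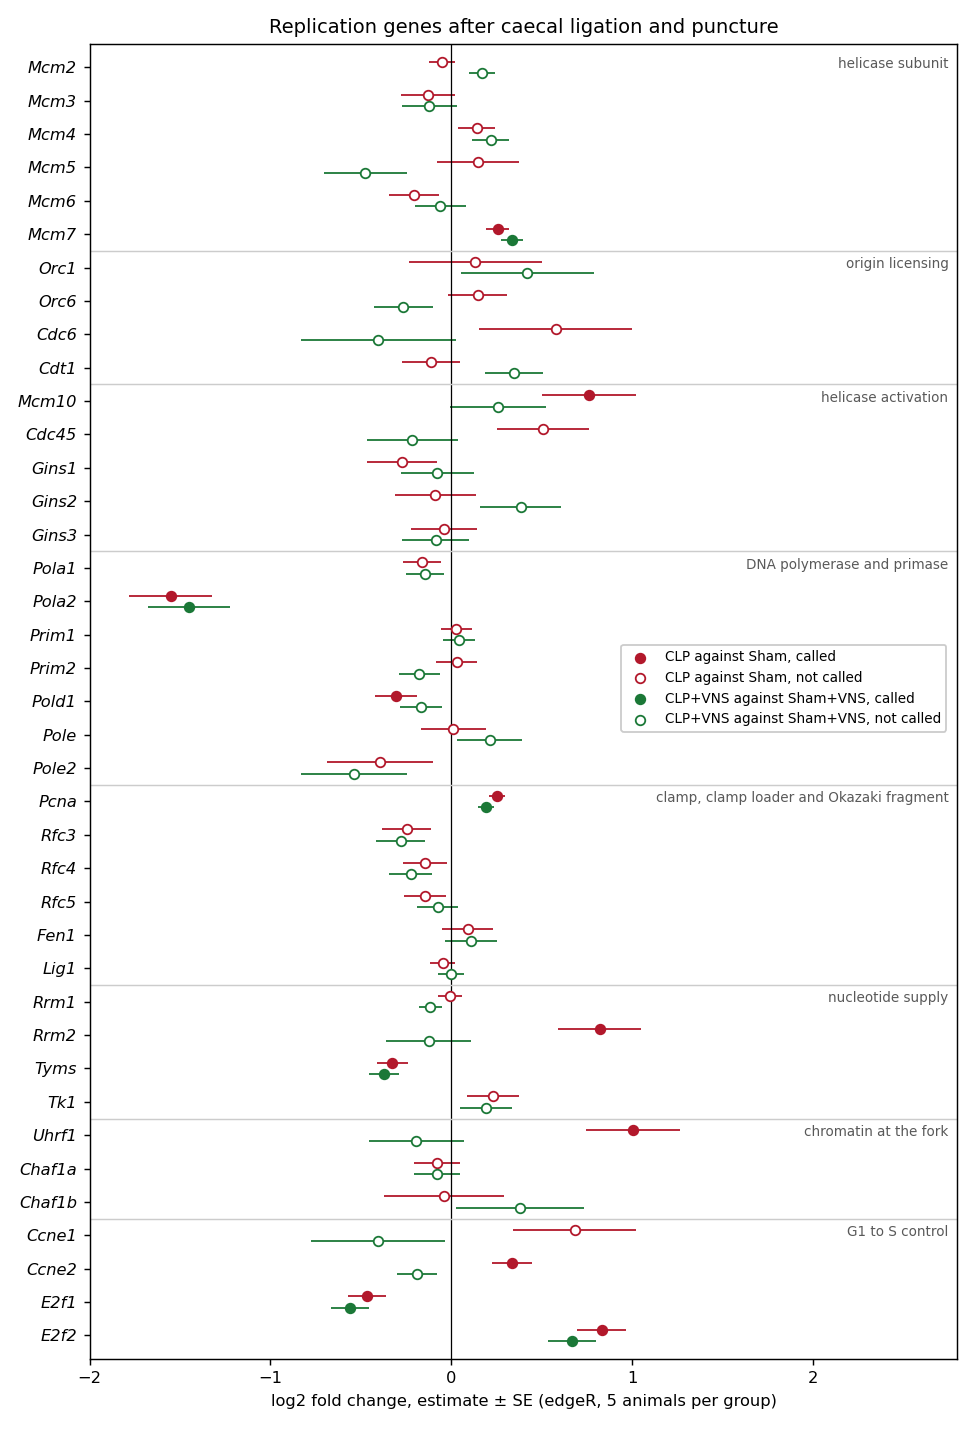
Log2 fold change (x axis, estimate ± SE from edgeR, 5 animals per group) of each of the 39 genes (y axis, in blocks by role) in CLP against Sham (red, upper point) and CLP+VNS against Sham+VNS (green, lower point); filled points were called. Pola2 lies farthest from 0 in both comparisons, at -1.55 and -1.45, and called genes of both directions stand in the blocks of nucleotide supply (Rrm2 and Tyms) and of G1 to S control (Ccne2, E2f1 and E2f2).

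The libraries differed little in depth. Total counts ran from 13729654 to 14453188 per library, and mean counts of the 39 genes ran from 8.85 for Orc1 to 759 for Pcna, so the lowest genes rest on few reads. Levels below are CPM, counts scaled by TMM to a library of common size, with SD over n = 5 animals; levels of different genes are compared only in TPM, which is scaled for length. The lung markers of the samples were present in every library, with summed surfactant and other alveolar type 2 markers at 18390 CPM or more. RNA of cell type markers moved with CLP. The 5 neutrophil markers summed to 1594 to 4281 CPM in CLP+VNS, against 294.9 to 640.3 CPM in Sham+VNS (4 of 5 called higher). They summed to 2801 to 4486 CPM in CLP, against 329.7 to 823.5 CPM in Sham (5 of 5 called higher). Summed T cell markers (5 genes) ran from 16.6 to 24.7 CPM in CLP+VNS, against 23.5 to 42.95 CPM in Sham+VNS (4 of 5 called lower), and from 15.9 to 20.5 CPM in CLP, against 31.95 to 53.35 CPM in Sham (5 of 5 called lower). The 7 markers of neutrophil precursors, which divide, summed to 6.92 to 49.99 CPM in CLP+VNS, against 1.37 to 3.83 CPM in Sham+VNS, and to 12.0 to 76.2 CPM in CLP, against 1.53 to 10.2 CPM in Sham. Only 3 of these 7 passed the filter on low counts, and all 3 were called higher in both comparisons. Among them, Ngp averaged 13.39 CPM in CLP+VNS and 18.45 CPM in CLP, against 0.1814 CPM in Sham+VNS and 0.3803 CPM in Sham. It thus passed the filter through the groups where it was high, and these calls say little about the list as a whole. 

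Markers of other cell types moved with CLP as well. Summed macrophage and monocyte markers (6 genes) ran from 669 to 1011 CPM in CLP+VNS, against 591.2 to 731.9 CPM in Sham+VNS (3 called higher, 1 lower), and from 917.5 to 1179 CPM in CLP, against 541 to 688.6 CPM in Sham (4 called higher, Adgre1 at 2.57 among them). Summed alveolar type 1 markers (4 genes) ran from 3056 to 3868 CPM in CLP+VNS, against 4120 to 5172 CPM in Sham+VNS, and from 2665 to 3984 CPM in CLP, against 3435 to 4986 CPM in Sham, with 3 called lower in both comparisons, Aqp5 (-1.80 in CLP against Sham) among them. Summed endothelial markers (4 genes) ran from 1613 to 2432 CPM in CLP+VNS, against 2120 to 2554 CPM in Sham+VNS, and from 1445 to 1810 CPM in CLP, against 1855 to 2311 CPM in Sham, with 2 called lower in both, Kdr (-1.25 in CLP against Sham) among them. Of these lists, the ranges of CLP and Sham were apart for macrophages and for endothelium. Of 4 B cell markers 3 were called lower in both, and the 3 adipocyte markers summed to 14.92 CPM at most in CLP+VNS and CLP, against up to 198 CPM in Sham+VNS (median 10.7) and 676 CPM in Sham (median 12.13), with 2 of 2 tested called lower in CLP against Sham. Of 4 fibroblast markers 1 was called higher and 2 lower in both comparisons, of 4 natural killer markers 0 were called by edgeR (2 and 1 with an unadjusted p below 0.05), and the ciliated, erythroid precursor and alveolar type 2 lists had at most 1 call each. The part of these markers and of the cells they mark in the changes of replication genes was not tested.

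Promoter sequence, which the choice of members did not use, was set beside that of all tested genes. RefSeq promoters of the assembly GRCr8 (250 bases before to 50 after the first listed start) were at hand for 32 of the 39 genes. The called genes Rrm2, Ccne2, E2f1 and E2f2, and Mcm4, Orc1 and Cdc6, had none and were not searched. The E2F letters searched on both strands were TTTCCCGC, TTTCGCGC, TTTGCCGC and TTTGGCGC. At least 1 of them lay in 14 of the 32 promoters (43.8%), against 3.78% of 11987 promoters of tested genes and 2.25% of all 27457 promoters of the table. CCAAT, the letters bound by NF-Y, lay in 59.4% of the 32, against 37.7% of promoters of tested genes, and the GC box GGGCGG in 65.6%, against 58.6%. TATAAA lay in 0 of the 32, against 7.56%, and TTTGAA, the core of the element that mitotic promoters carry, in 9.38%, against 12.3%. A match describes letters and not a bound site. The 14 windows below show the match nearest the start, in capitals, with 10 bases on each side, 5′ to 3′ on the gene's strand; coordinates are of GRCr8, not of the build of the counts.
Mcm2, chr4:122918087-122918114, minus strand: cccggttttcGCGCGAAAacccgtggca
Mcm3, chr9:30733735-30733762, minus strand: aacttccgtgGCGGGAAAacttgggaag
Mcm5, chr19:13488795-13488822, plus strand: caggttggttTTTCCCGCgaaagtcggc
Mcm6, chr13:42404470-42404497, minus strand: tctgcttttgGCGCGAAAttagcgtgtg
Mcm7, chr12:22163213-22163240, minus strand: ggtgacgacgTTTCGCGCcaatttcggt
Cdt1, chr19:67529246-67529273, plus strand: cgcgaaaattGCGCGAAAtccgcgggaa
Gins1, chr3:160184889-160184916, plus strand: agcctatttgGCGCCAAAgagaggagct
Gins3, chr19:9434698-9434725, minus strand: tgagtgaggcGCGGGAAAacgagtttga
Pola1, chrX:62342510-62342537, minus strand: tcatcacaggGCGCCAAAtgcagtcccg
Pole, chr12:52053647-52053674, minus strand: acatgagagcGCGCCAAAttttcccggg
Pole2, chr6:93435335-93435362, minus strand: ttcggcggtgGCGCCAAAtctcaaacat
Rfc3, chr12:5836555-5836582, plus strand: cgtcgcagccTTTCGCGCtcgcgggaaa
Lig1, chr1:83243179-83243206, plus strand: caaggtctgcGCGCGAAAtctgtgtggc
Tyms, chr9:120776103-120776130, minus strand: aggtgcgggtTTTGGCGCcgactacact

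The letters stood in called genes of both directions and in genes that were not called. Of the 7 called genes with a promoter in the table, 2 had a match, Mcm7 and Tyms, and they moved in opposite directions. Of the 25 genes with a promoter that were called in neither comparison, 12 had a match. The 250 bases before the start are printed for this pair and for Pcna and Pola2, called genes without a match; capitals mark E2F and CCAAT letters on either strand, and in Mcm7 an E2F match and a CCAAT overlap.
Mcm7, chr12:22163179-22163428, minus strand: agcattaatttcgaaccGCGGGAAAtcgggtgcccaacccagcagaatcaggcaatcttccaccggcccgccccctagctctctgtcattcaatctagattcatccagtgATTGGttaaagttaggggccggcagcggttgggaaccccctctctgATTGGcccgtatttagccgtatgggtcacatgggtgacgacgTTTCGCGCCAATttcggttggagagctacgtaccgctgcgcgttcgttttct
Tyms, chr9:120776084-120776333, minus strand: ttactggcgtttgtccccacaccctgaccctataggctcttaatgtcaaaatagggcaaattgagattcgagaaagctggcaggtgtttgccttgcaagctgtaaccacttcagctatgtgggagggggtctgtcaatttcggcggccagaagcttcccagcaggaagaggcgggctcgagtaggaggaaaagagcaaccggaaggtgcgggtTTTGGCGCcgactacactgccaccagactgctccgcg
Pcna, chr3:139955821-139956070, minus strand: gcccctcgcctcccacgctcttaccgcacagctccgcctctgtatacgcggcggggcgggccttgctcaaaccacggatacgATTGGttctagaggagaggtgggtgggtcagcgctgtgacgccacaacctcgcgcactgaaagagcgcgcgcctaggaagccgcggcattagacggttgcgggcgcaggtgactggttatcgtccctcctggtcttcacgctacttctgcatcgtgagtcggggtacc
Pola2, chr1:212680543-212680792, minus strand: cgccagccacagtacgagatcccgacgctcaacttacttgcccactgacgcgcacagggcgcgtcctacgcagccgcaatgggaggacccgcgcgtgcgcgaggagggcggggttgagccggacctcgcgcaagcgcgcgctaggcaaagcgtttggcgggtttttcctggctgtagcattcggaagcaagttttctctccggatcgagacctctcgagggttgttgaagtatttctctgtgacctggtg

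Mcm7, gene 288532, was the only helicase subunit called, and it rose. Mcm2 to Mcm7 form the ring that unwinds DNA in equal numbers, yet their RNA levels in lung were unequal: averaged over the 20 libraries, Mcm7 stood at 33.95 TPM, followed by Mcm4 at 8.98, Mcm2 at 8.03, Mcm6 at 6.63, Mcm3 at 5.68 and Mcm5 at 2.665 TPM. Mcm7 had 56.2, 59.5, 50.3, 50.5 and 52.5 CPM in CLP, against 46.1, 45.3, 44.3, 43.6 and 46.0 CPM in Sham, and 56.0, 54.1, 58.2, 56.7 and 63.1 CPM in CLP+VNS, against 46.5, 47.6, 38.4, 45.7 and 50.1 CPM in Sham+VNS. Every CLP library was above every Sham library, and every CLP+VNS library above every Sham+VNS library. The log2 fold change was 0.26 ± 0.06 (SE; edgeR adjusted p = 0.0032) in CLP against Sham and 0.34 ± 0.06 (adjusted p = 0.000519) in CLP+VNS against Sham+VNS. With limma on TPM the first of these was 0.15 and not called (adjusted p = 0.081). The gene also hosts the microRNA genes Mir25, Mir93 and Mir106b, which were not analysed here.

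The other 5 subunits were not called in either comparison. Their log2 fold changes in CLP against Sham lay between -0.20 for Mcm6 and 0.15 for Mcm5, and in CLP+VNS against Sham+VNS between -0.48 for Mcm5 and 0.22 for Mcm4. Mcm5 averaged 4.09 ± 0.532 CPM in CLP+VNS and 5.70 ± 1.79 CPM in Sham+VNS (SD, n = 5 each), with a single Sham+VNS library at 8.03 CPM. Mcm2 in CLP+VNS against Sham+VNS passed the threshold once replicate 5 of Sham+VNS was left out (log2 fold change 0.23, adjusted p = 0.0209), and with all libraries stood at 0.17 ± 0.07 (adjusted p = 0.0917).

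None of the origin licensing genes was called in either comparison, and Orc1 and Cdc6 varied widely. Orc1 and Orc6, subunits of the origin recognition complex, averaged 0.3465 and 3.18 TPM over all libraries, Cdc6 0.495 TPM and Cdt1 2.34 TPM. Orc1 was the lowest of all 39 genes. Cdc6 ran from 0.786 to 1.54 CPM in CLP, against 0.276 to 1.40 CPM in Sham, and from 0.351 to 1.15 CPM in CLP+VNS, against 0.352 to 1.34 CPM in Sham+VNS; its coefficient of variation within a group had a median of 42.4% over the 4 groups, the highest of the 39, where that of Pcna was 4.21%, the lowest. The same measure was 37.4% for Orc1, 14.7% for Orc6 and 14.4% for Cdt1. With few reads and this spread between animals, a difference such as 0.58 ± 0.42 for Cdc6 in CLP against Sham (edgeR adjusted p = 0.297) was not called. Cdt1 stood at -0.11 ± 0.16 in CLP against Sham and 0.35 ± 0.16 in CLP+VNS against Sham+VNS (adjusted p = 0.611 and 0.116).

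Among the genes that switch the helicase on, Mcm10 was called in CLP against Sham. Mcm10, gene 307126, binds the loaded helicase and helps it start. It had 4.15, 4.45, 5.07, 4.10 and 6.03 CPM in CLP, against 4.94, 3.01, 1.60, 2.53 and 1.93 CPM in Sham. The groups overlap, with Sham replicate 1 above 3 of the 5 CLP libraries. The log2 fold change was 0.76 ± 0.26 (edgeR adjusted p = 0.0258), and the call was lost without any 1 of Sham replicates 3, 4 and 5 or CLP replicate 6 (adjusted p = 0.0652, 0.0536, 0.0676 and 0.0683). The difference in CLP+VNS against Sham+VNS was 0.26 ± 0.26 (adjusted p = 0.519).

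Cdc45, which helps turn the Mcm ring into an active helicase, stood at 0.51 ± 0.25 in CLP against Sham (edgeR adjusted p = 0.12). It passed the threshold without Sham replicate 2 (0.74, adjusted p = 0.0262). The GINS subunits Gins1, Gins2 and Gins3 were not called in either comparison, with log2 fold changes from -0.27 to -0.04 in CLP against Sham and from -0.09 to 0.38 in CLP+VNS against Sham+VNS. Gins2 overlaps Gse1 on the opposite strand and had fractional counts in all 20 libraries. Gse1 was itself called lower in CLP against Sham (-0.18 ± 0.06, edgeR adjusted p = 0.0287) and stood at -0.12 ± 0.06 in CLP+VNS against Sham+VNS (adjusted p = 0.181), and its part in the counts of Gins2 was not tested.

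Pola2, gene 85242, the accessory subunit of polymerase alpha, changed most of the 39 genes, and it fell. It had 8.01, 13.7, 8.47, 7.62 and 7.21 CPM in CLP, against 29.2, 26.0, 16.6, 36.2 and 24.2 CPM in Sham. It had 7.39, 7.75, 11.1, 10.1 and 8.43 CPM in CLP+VNS, against 21.6, 15.6, 30.1, 33.5 and 21.5 CPM in Sham+VNS. No CLP library reached the lowest Sham library, and no CLP+VNS library the lowest Sham+VNS library. Fitted log2 fold changes were -1.55 ± 0.23 (edgeR adjusted p = 3.05e-05) and -1.45 ± 0.23 (adjusted p = 0.000113), a fold of 0.341 and 0.366. Its control libraries were also widely spread, from 15.6 to 36.2 CPM over Sham+VNS and Sham.

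The difference in Pola2 lay in the counts of 1 predicted transcript. The deposited transcript table holds 3 for the gene, of which XM_039092904 and NM_053480 reach 10% of its TPM in some group. XM_039092904 is a RefSeq model predicted by computation; its reads per TPM were 62.8% of those of NM_053480 (62.3 to 63.1% over 18 libraries), so it was the shorter of the pair. It had 4.05, 9.70, 7.07, 4.86 and 5.44 TPM in CLP, against 31.1, 26.8, 15.9, 37.6 and 24.4 TPM in Sham, and 3.45, 5.31, 8.14, 7.08 and 5.97 TPM in CLP+VNS, against 21.1, 14.1, 31.6, 36.0 and 20.3 TPM in Sham+VNS. It made up 72.5% of the gene's TPM in CLP, against 91.1% in Sham, and 70.4% in CLP+VNS, against 90.7% in Sham+VNS. NM_053480 had 2.64, 2.70, 0.530, 1.20 and 0.5 TPM in CLP, against 2.18, 2.04, 1.23, 2.39 and 2.82 TPM in Sham, and 2.36, 1.18, 1.71, 1.73 and 1.98 TPM in CLP+VNS, against 1.95, 1.74, 1.66, 1.79 and 1.81 TPM in Sham+VNS. Its groups overlap in both comparisons. With the predicted transcript's counts taken out of the gene, a choice made after seeing the data, Pola2 stood at -0.08 in CLP against Sham (edgeR adjusted p = 0.786) and 0.06 in CLP+VNS against Sham+VNS (adjusted p = 0.874), so the direction turned in the second comparison and neither was called. Whether XM_039092904 is a product of Pola2 was not tested here, so the call of the gene rests on that assignment in the deposited table. How reads that both transcripts could hold were divided was not stated in the sources used here.

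**Figure D2:**
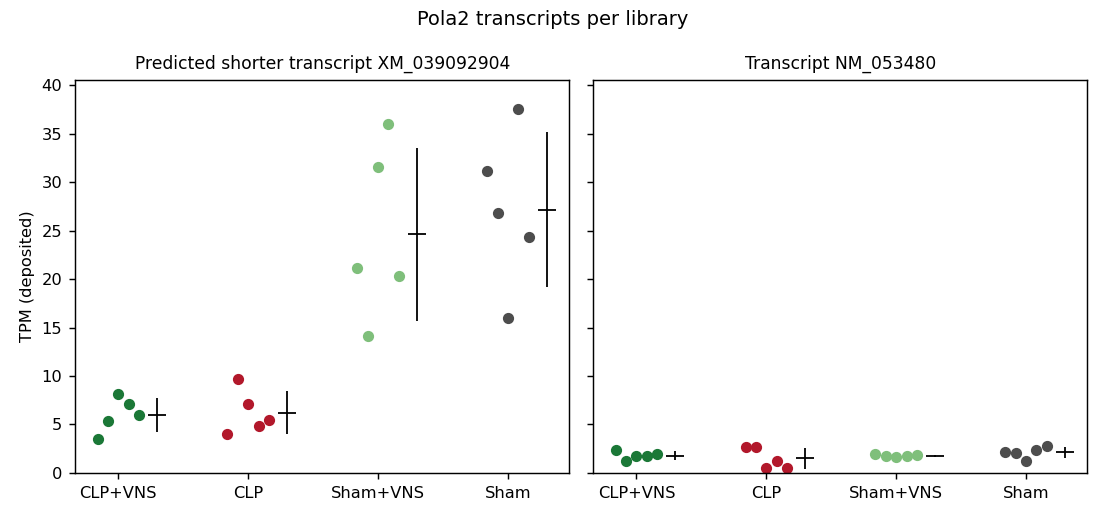
Deposited TPM (y axis) of the predicted shorter transcript XM_039092904 (left) and of NM_053480 (right) of Pola2 in each library (points) of the 4 groups (x axis), with mean ± SD beside them (n = 5). The predicted transcript stays at 9.70 TPM or below in all CLP+VNS and CLP libraries and at 14.1 TPM or above in all Sham+VNS and Sham libraries, while NM_053480 stays at 2.82 TPM or below in every library.

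The other subunits of the polymerase alpha complex were not called in either comparison. Pola1, its catalytic subunit, stood at -0.16 ± 0.11 in CLP against Sham (adjusted p = 0.237) and -0.14 ± 0.11 in CLP+VNS against Sham+VNS (adjusted p = 0.346); without CLP replicate 4 the first was called (-0.26, adjusted p = 0.0385). Prim1 and Prim2, the primase subunits, lay between -0.18 and 0.04 in both comparisons and were not called. In Sham, Pola2 averaged 29.8 TPM, Prim1 20.7, Prim2 7.34 and Pola1 4.30 TPM; in CLP the same genes averaged 8.58, 19.9, 7.12 and 3.60 TPM.

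Pold1, gene 59294, the catalytic subunit of polymerase delta, which extends the lagging strand, was slightly lower after CLP. It had 7.15, 8.34, 7.17, 8.28 and 5.96 CPM in CLP, against 10.8, 9.58, 7.77, 8.80 and 8.64 CPM in Sham, with groups that overlap. The log2 fold change was -0.30 ± 0.12 (edgeR adjusted p = 0.0409), and the call was lost without any 1 of Sham replicates 1, 2 and 4 (adjusted p = 0.118, 0.0793 and 0.0559) or CLP replicates 1, 4 and 6 (0.0746, 0.0744 and 0.115), without a filter on low counts (0.0551) and with the 2 groups fitted alone (0.0774). It stood at -0.17 ± 0.12 (adjusted p = 0.308) in CLP+VNS against Sham+VNS. Pole, the catalytic subunit of polymerase epsilon, averaged 0.692 TPM over all libraries and Pole2, its accessory subunit, 1.05 TPM; Pole2 stood at -0.39 ± 0.29 and -0.54 ± 0.29 in the 2 comparisons (adjusted p = 0.303 and 0.192).

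Pcna, gene 25737, the clamp that holds polymerases on DNA, was the highest of the 39 genes in TPM and rose by a small, even amount. It had 57.0, 61.7, 54.9, 59.6 and 61.4 CPM in CLP, against 45.2, 51.3, 51.5, 50.8 and 48.6 CPM in Sham. It had 59.2, 57.7, 54.9, 58.0 and 58.5 CPM in CLP+VNS, against 49.7, 49.6, 52.4, 48.3 and 52.0 CPM in Sham+VNS. The groups did not overlap in either comparison. Log2 fold changes were 0.25 ± 0.04 (edgeR adjusted p = 0.000167) and 0.19 ± 0.04 (adjusted p = 0.00276), a fold of 1.19 and 1.14. In the deposited TPM, Pcna averaged 94.8 in CLP, against 84.8 in Sham, a log2 ratio of means of 0.16, and 93.6 in CLP+VNS, against 85.5 in Sham+VNS.

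Of the genes that work with Pcna, Rfc3, Rfc4, Rfc5, Fen1 and Lig1 were not called in either comparison. The clamp loader subunits Rfc3, Rfc4 and Rfc5 had negative values in both, from -0.25 for Rfc3 to -0.14 for Rfc4 in CLP against Sham and from -0.28 for Rfc3 to -0.07 for Rfc5 in CLP+VNS against Sham+VNS. Rfc3 passed the threshold in CLP against Sham with limma on TPM (-0.31, adjusted p = 0.0367) and in CLP+VNS against Sham+VNS without Sham+VNS replicate 1 (-0.37, adjusted p = 0.0436), against 0.162 and 0.144 with all libraries in edgeR. Fen1, which trims Okazaki fragments, and Lig1, which joins them, lay between -0.05 and 0.11 in both comparisons. Both genes overlap another gene on the opposite strand (Tmem258 and Zswim9, not called), and the strand setting of the counting was not stated in the sources used here.

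Of the 4 genes of deoxynucleotide supply, Tyms was called lower and Rrm2 higher. Tyms, gene 29261, makes thymidylate from deoxyuridylate. It had 43.3, 37.9, 39.9, 33.9 and 36.6 CPM in CLP, against 43.9, 51.5, 47.9, 51.2 and 45.7 CPM in Sham. It had 35.6, 40.2, 37.4, 36.9 and 34.0 CPM in CLP+VNS, against 50.3, 43.8, 43.5, 58.3 and 42.2 CPM in Sham+VNS. Tyms fell in both comparisons, by a margin that is narrow in CLP, where its highest library (43.3 CPM) is just under the lowest Sham library (43.9 CPM). Log2 fold changes were -0.33 ± 0.08 (edgeR adjusted p = 0.00441) and -0.37 ± 0.08 (adjusted p = 0.0025).

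Rrm2, gene 362720, is the small subunit of ribonucleotide reductase, which makes deoxynucleotides, and it is made chiefly in S phase. It had 15.9, 17.2, 19.6, 17.7 and 22.7 CPM in CLP, against 8.26, 12.2, 11.4, 12.2 and 8.64 CPM in Sham. It had 10.2, 12.1, 6.34, 6.70 and 11.7 CPM in CLP+VNS, against 6.19, 6.82, 12.8, 9.64 and 15.8 CPM in Sham+VNS. All CLP libraries lay above all libraries of the other 3 groups, of which Sham+VNS replicate 5, at 15.8 CPM, came nearest to the lowest CLP library, at 15.9 CPM. Rrm2 rose in CLP against Sham by 0.82 ± 0.23 on the log2 scale (edgeR adjusted p = 0.00833) and stood at -0.13 ± 0.24 in CLP+VNS against Sham+VNS (adjusted p = 0.748). Its large partner Rrm1 stood at -0.01 ± 0.07 in CLP against Sham (edgeR adjusted p = 0.95), and the thymidine salvage kinase Tk1 at 0.23 ± 0.14 (adjusted p = 0.213). Rrm2 overlaps the gene Cys1 and had fractional counts in all 20 libraries. Cys1 was called lower in CLP against Sham (-0.61 ± 0.20, edgeR adjusted p = 0.0214) and stood at -0.18 ± 0.20 in CLP+VNS against Sham+VNS (adjusted p = 0.559). The part of Cys1 in the counts of Rrm2 was not tested.

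Uhrf1, gene 316129, which brings the maintenance methyltransferase to newly copied DNA, rose the most of the 39 genes in CLP against Sham. It had 3.93, 4.80, 6.73, 6.01 and 7.06 CPM in CLP, against 2.54, 3.43, 2.69, 3.87 and 1.66 CPM in Sham. It had 3.21, 3.37, 3.03, 2.57 and 2.81 CPM in CLP+VNS, against 1.69, 2.57, 5.15, 3.14 and 4.58 CPM in Sham+VNS. The lowest CLP library, at 3.93 CPM, lay just above the highest Sham library, at 3.87 CPM, while the stimulated groups overlap. Log2 fold changes were 1.01 ± 0.26 (edgeR adjusted p = 0.00449) in CLP against Sham and -0.19 ± 0.26 (adjusted p = 0.644) in CLP+VNS against Sham+VNS. Chaf1a and Chaf1b, the subunits of the chromatin assembly factor that puts histones on new DNA, were not called; Chaf1a stood at -0.08 ± 0.13 and -0.08 ± 0.13 in the 2 comparisons, and Chaf1b, at 0.5915 TPM over all libraries, at -0.04 ± 0.33 and 0.38 ± 0.35.

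The E2F factors E2f1 and E2f2, both of which activate S phase genes, moved in opposite directions in both comparisons. E2f1, gene 399489, had 8.01, 6.99, 9.49, 7.55 and 8.38 CPM in CLP, against 11.2, 13.0, 11.0, 10.1 and 10.4 CPM in Sham, and 7.31, 7.25, 6.92, 7.77 and 6.60 CPM in CLP+VNS, against 10.1, 9.11, 13.2, 10.5 and 9.93 CPM in Sham+VNS. E2f2, gene 684111, had 46.0, 55.2, 41.1, 52.8 and 41.0 CPM in CLP, against 21.4, 25.0, 25.3, 29.8 and 31.2 CPM in Sham, and 42.2, 36.2, 32.7, 34.7 and 56.2 CPM in CLP+VNS, against 23.7, 26.2, 23.7, 27.8 and 25.8 CPM in Sham+VNS. For both genes the groups did not overlap in either comparison. E2f1 changed by -0.46 ± 0.10 on the log2 scale (edgeR adjusted p = 0.00161) in CLP against Sham and by -0.56 ± 0.11 (adjusted p = 0.00053) in CLP+VNS against Sham+VNS. In the same comparisons E2f2 rose by 0.83 ± 0.13 (adjusted p = 7.29e-05) and 0.67 ± 0.13 (adjusted p = 0.000972).

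Within a library, the ratio of E2f2 to E2f1 in TPM ran from 2.69 to 4.96 in CLP (median 3.46), against 1.17 to 1.82 in Sham (median 1.40). It ran from 2.72 to 5.17 in CLP+VNS (median 3.14), against 1.10 to 1.76 in Sham+VNS (median 1.60). E2f2 had more TPM than E2f1 in every library. The ranges of the ratio in CLP and Sham, and in CLP+VNS and Sham+VNS, are apart. That gap follows from the levels above, where the groups did not overlap for either gene, and is not a further result. E2f2 overlaps the noncoding gene LOC134479041 of the reference, which is not in the count table.

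The E-type cyclins drive entry into S phase with Cdk2. Ccne2, gene 362485, had 16.1, 11.6, 14.3, 13.6 and 13.8 CPM in CLP, against 10.4, 12.3, 11.3, 9.85 and 11.0 CPM in Sham, and 13.4, 11.8, 12.1, 12.4 and 9.90 CPM in CLP+VNS, against 13.3, 16.1, 13.4, 14.9 and 10.2 CPM in Sham+VNS. Sham held the lowest values of the 4 groups on average, and CLP and Sham overlap. Ccne2 stood at 0.34 ± 0.11 in CLP against Sham (edgeR adjusted p = 0.0219), a call lost with limma on TPM (adjusted p = 0.118) and without Sham replicate 4 (0.0543) or CLP replicate 1 (0.0637), and at -0.19 ± 0.11 in CLP+VNS against Sham+VNS (adjusted p = 0.231). Ccne1 was low, with 1.36, 0.848, 1.59, 1.54 and 1.25 CPM in CLP, against 0.706, 1.47, 0.581, 0.844 and 0.484 CPM in Sham; its value of 0.68 ± 0.34 (adjusted p = 0.118) passed the threshold without Sham replicate 2 (1.00, adjusted p = 0.0271).

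**Figure D3:**
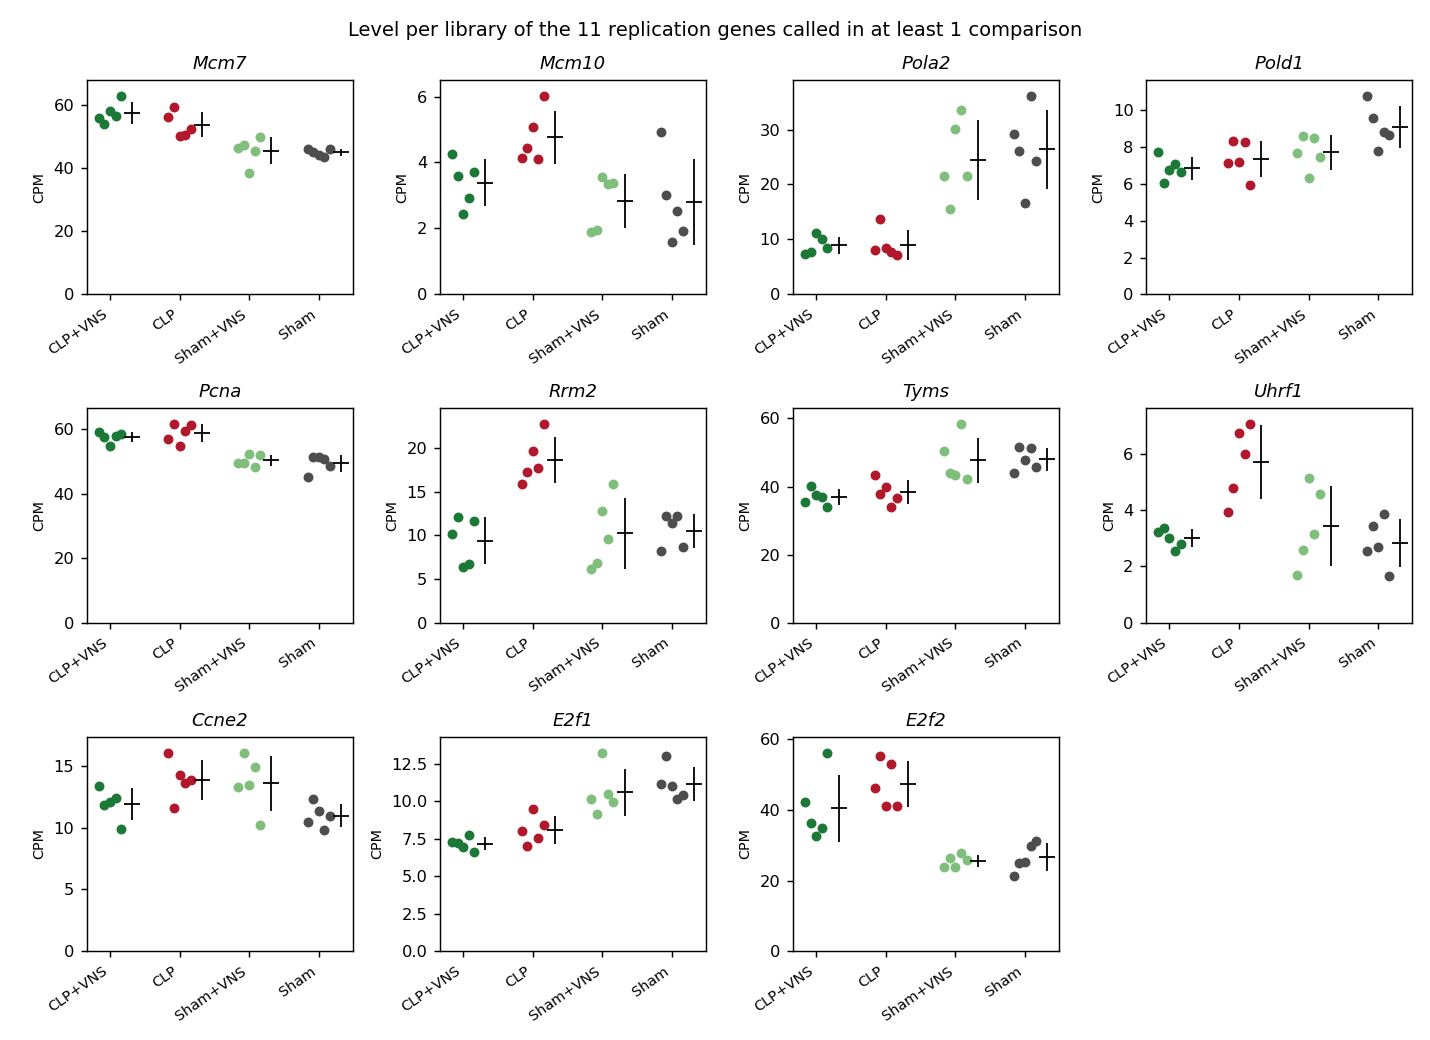
Level in CPM (y axis, from 0) of the 11 genes called in at least 1 comparison, in each library (points) of the 4 groups (x axis), with mean ± SD beside them (n = 5). Pola2, Tyms and E2f1 are lower and Mcm7, Pcna and E2f2 higher in CLP+VNS and CLP than in their controls, whereas Rrm2 and Uhrf1 are high in CLP, at means of 18.6 and 5.71 CPM, and not in CLP+VNS, at 9.39 and 3.00 CPM.

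None of the 39 genes was called between stimulated and unstimulated animals. In CLP+VNS against CLP, edgeR called 0 of 39, beside 0.027% of all genes; 6 had an unadjusted p below 0.05, beside 13% of all genes, the smallest adjusted p was 0.129, limma on TPM called 0, and DESeq2 called 1, Rrm2, beside 0.867% of all genes. The 6 were Ccne1 at -1.15 ± 0.35 (adjusted p = 0.192), Rrm2 at -0.99 ± 0.23 (0.129; 0.013 in DESeq2), Uhrf1 at -0.93 ± 0.26 (0.181), Mcm5 at -0.55 ± 0.23 (0.314), Rrm1 at -0.18 ± 0.07 (0.254) and Cdt1 at 0.34 ± 0.16 (0.379). For Ccne1, Rrm2, Uhrf1 and Orc6 every CLP+VNS library was below every CLP library, where 1.14% of all genes had groups apart in this direction, 1.12% in the other and 2.26% in either; Orc6 stood at -0.27 ± 0.16 (adjusted p = 0.506). Ccne1 had 0.597, 0.574, 0.433, 0.499 and 0.843 CPM in CLP+VNS, against 1.36, 0.848, 1.59, 1.54 and 1.25 CPM in CLP. Of the 39 log2 fold changes, 31 were below 0, with a median of -0.11, beside 0.00 over all tested genes. This comparison shares its CLP libraries with CLP against Sham, in which Rrm2 and Uhrf1 were called higher.

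In Sham+VNS against Sham, edgeR called 0 of 39, as it called 0% of all genes; 5 had an unadjusted p below 0.05 (Mcm2, Gins1, Pold1, Lig1 and Ccne2), beside 8.01% of all genes. The smallest adjusted p was 0.56, limma called 0, and DESeq2 called 0 of the 39, beside 0.0406% of all genes. The test of whether CLP changed a gene differently with stimulation than without it also called 0 of 39, beside 0% of all genes, as did limma; DESeq2 called 0 of 39, beside 0.0406%. Its unadjusted p was below 0.05 for 8.23% of all genes and for 5 of the 39, namely Uhrf1, at -1.20 ± 0.37 (adjusted p = 0.512), Ccne2, at -0.53 ± 0.16 (0.512), Rrm2, at -0.95 ± 0.33 (0.514), Ccne1, at -1.09 ± 0.50 (0.592), and Mcm2, at 0.22 ± 0.10 (0.589). Calls of Rrm2, Uhrf1, Mcm10, Ccne2 and Pold1 in CLP against Sham, and their lack in CLP+VNS against Sham+VNS, are therefore not shown to differ between stimulated and unstimulated animals.

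Genes of mitosis gave a different count from the replication genes. Of 36 mitosis genes listed for this comparison (spindle, kinetochore and mitotic kinase genes and the like), 33 were higher and 0 lower in CLP against Sham, with a median log2 fold change of 1.22, against 7 higher and 4 lower of the 39 replication genes. That is 91.7% of the list, where 40.3% of all tested genes were called. The highest were the kinase subunit Cks2, at 1.61 ± 0.36, the ubiquitin-conjugating enzyme Ube2c, at 1.57 ± 0.33, and the cyclin Ccnb2, at 1.56 ± 0.32 (edgeR adjusted p = 0.00159, 0.000983 and 0.000636). Only 1 of the 36 was called in CLP+VNS against Sham+VNS, Aurka, at 0.43 ± 0.12 (edgeR adjusted p = 0.00902), and the median was 0.00; this is 2.78% of the list, where 27.3% of all tested genes were called. The test of the difference between these comparisons called 0 of the 36, as it called 0% of all tested genes (edgeR, smallest adjusted p 0.502). Its unadjusted p was below 0.05 for 31 of the 36, beside 8.23% of all tested genes. Summed CPM of the 36 ran from 251 to 459.5 in CLP, with 3 of the 5 libraries at 419 or above, against 148 to 224 in Sham, and from 218 to 316 in CLP+VNS, against 168 to 358 in Sham+VNS. Summed CPM of the 39 replication genes ran from 488.4 to 525.4 in CLP, against 458.5 to 533.5 in Sham, and from 460.6 to 482.5 in CLP+VNS, against 441 to 509.7 in Sham+VNS, so that its ranges overlap in both comparisons.

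**Figure D4:**
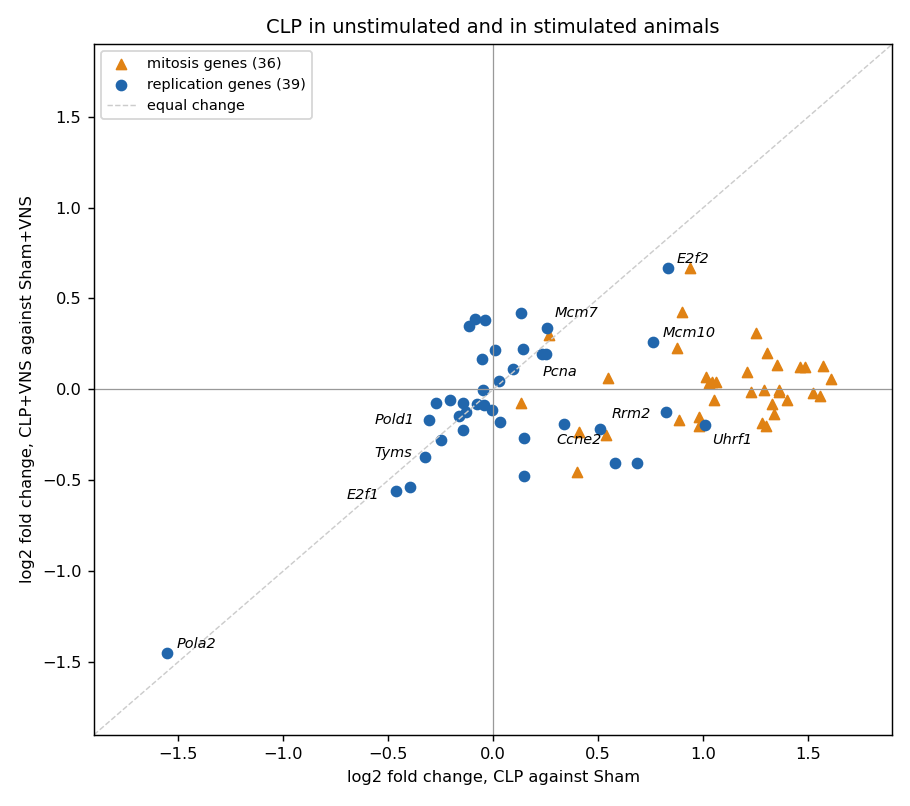
Log2 fold change in CLP against Sham (x axis) and in CLP+VNS against Sham+VNS (y axis) of the 39 replication genes (blue circles; called ones are named) and 36 mitosis genes (orange triangles); the dashed line marks equal change. The mitosis genes lie to the right and near 0 on the y axis, with medians of 1.22 and 0.00, whereas the replication genes lie on both sides of 0 in both, with Rrm2, Uhrf1, Mcm10 and Ccne2 to the right.

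Other S phase genes, from lists chosen with earlier results of these data known, held calls of both directions. The share called was 17.6% of the licensing list and 21.1% of the fork list in CLP against Sham, where it was 40.3% of all tested genes, and 5.88% and 21.1% in CLP+VNS against Sham+VNS, where it was 27.3%. Of 17 further genes of origin licensing and firing, 3 rose in CLP against Sham: Orc2 (0.23 ± 0.06), Mcmbp, which binds Mcm proteins (0.17 ± 0.05), and Dbf4, which activates the kinase that fires origins (0.60 ± 0.20); none fell. Of 19 further fork genes, 1 rose, the checkpoint adaptor Clspn (1.17 ± 0.26), and 3 fell: the fork protection gene Timeless (-0.94 ± 0.12), Rnaseh2a (-0.21 ± 0.07) and the clamp loader subunit Rfc1 (-0.20 ± 0.06). In CLP+VNS against Sham+VNS, Orc2 of the first list rose (0.21 ± 0.06), and of the fork genes Pold2 (0.23 ± 0.08) and Rpa3 (0.32 ± 0.08) rose while Timeless (-0.90 ± 0.12) and Rnaseh2a (-0.29 ± 0.07) fell. Median log2 fold changes of these lists were 0.08 and -0.07 in CLP against Sham and -0.03 and -0.02 in CLP+VNS against Sham+VNS, beside -0.01 over all tested genes in each. In CLP against Sham the licensing list had 5 calls without Sham replicate 2 or without CLP replicate 1, and 2 higher and 3 lower with libraries scaled by their total alone, while the fork list had 1 higher and 7 lower with limma on TPM.

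Nucleotide supply had the same 4 of 16 further genes called in both comparisons, 25% of the list, below the 40.3% and near the 27.3% of all tested genes. Impdh2, of guanine nucleotide synthesis, rose by 0.37 ± 0.08 in CLP against Sham and 0.40 ± 0.08 in CLP+VNS against Sham+VNS. Shmt1, which feeds one-carbon units to thymidylate synthesis, stood at -0.72 ± 0.11 and -0.63 ± 0.11 in the same comparisons. Dut, which makes the substrate of Tyms, stood at -0.55 ± 0.09 and -0.30 ± 0.09, and Dtymk, which phosphorylates its product, at -0.47 ± 0.08 and -0.38 ± 0.08 (edgeR adjusted p = 5.11e-05 and 0.0124 for Dut, 8.44e-05 and 0.000998 for Dtymk). Tyms, Dut, Dtymk and Shmt1, which act in thymidylate synthesis, were thus all called lower in both comparisons, while the salvage kinase Tk1 was called in neither; these 4 were put together after their values were seen.

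Of 11 genes of chromatin at the fork, 4 rose in CLP against Sham, Asf1b (0.76 ± 0.27), Slbp (0.22 ± 0.07) and Nasp (0.20 ± 0.08) among them, and 2 fell, Rbbp7 (-0.19 ± 0.04) and the methyltransferase Dnmt1 (-0.15 ± 0.05), the partner of Uhrf1. Of 17 genes of recombination and checkpoint, 4 rose, Bard1 (1.13 ± 0.33), Fanci (0.99 ± 0.22) and Usp1 (0.46 ± 0.07) among them, and Msh6 fell (-0.36 ± 0.09). In CLP+VNS against Sham+VNS 1 chromatin gene rose, Dek (0.13 ± 0.05), and of the recombination genes Fanci (0.71 ± 0.22), Usp1 (0.35 ± 0.07) and Atad2 (0.23 ± 0.07) rose and Msh6 fell (-0.26 ± 0.09). In CLP against Sham the chromatin list had 2 calls without Sham replicate 5 and, with all libraries, 1 higher and 2 lower both when libraries were scaled by their total alone and with limma on TPM. In CLP+VNS against Sham+VNS the call of Dek was lost without any 1 of Sham+VNS replicates 1, 3 and 4 or CLP+VNS replicates 3 and 5, and the recombination list had 2 calls without Sham+VNS replicate 1 or CLP+VNS replicate 1. The share called was 54.5% of the chromatin list and 29.4% of the recombination list in CLP against Sham, beside 40.3% of all tested genes, and 9.09% and 23.5% in CLP+VNS against Sham+VNS, beside 27.3%.

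Of 8 tested cell cycle inhibitors, which act upstream of S phase, 5 rose and 1 fell in each comparison, 75% of the list in each, where 40.3% and 27.3% of all tested genes were called. Cdkn1a, which encodes p21, an inhibitor of cyclin kinases that also binds Pcna, averaged 124 ± 18.7 CPM in CLP and 23.9 ± 4.38 CPM in Sham, and 147 ± 30.4 CPM in CLP+VNS and 34.3 ± 5.11 CPM in Sham+VNS (SD, n = 5 each). Its log2 fold changes were 2.37 ± 0.16 and 2.10 ± 0.16 (edgeR adjusted p = 2.28e-08 and 8.31e-08). Cdkn2d, Btg2, Gadd45a and Cdkn1b also rose in both comparisons, at 0.71, 0.68, 0.42 and 0.31 in CLP against Sham, and Cdkn2b, which encodes p15, fell, at -0.66 ± 0.16 and -0.86 ± 0.16.

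Of the other 11 E2F and RB genes, 27.3% were called in CLP against Sham and 36.4% in CLP+VNS against Sham+VNS, and of 11 G1 cyclins, kinases and MYC genes 63.6% and 27.3%, beside the same 40.3% and 27.3% of all tested genes. Of the E2F and RB genes, Rb1, E2f5 and Tfdp2 rose in CLP against Sham, by 0.32 ± 0.06, 0.24 ± 0.08 and 0.26 ± 0.08, and Rb1, Rbl2, E2f5 and E2f4 in CLP+VNS against Sham+VNS, by 0.20 ± 0.06, 0.25 ± 0.06, 0.34 ± 0.08 and 0.21 ± 0.07. E2f3, the third activator, stood at 0.23 ± 0.12 and 0.32 ± 0.12 and was not called (adjusted p = 0.149 and 0.0583). E2f7 and E2f8, which repress S phase genes, stood at 0.87 ± 0.44 and 0.41 ± 0.39 in CLP against Sham and were not called (adjusted p = 0.118 and 0.432). Of the G1 genes, Myc (0.87 ± 0.09), Cdc25a (0.45 ± 0.11) and Ccnd3 (0.25 ± 0.07) were among 4 that rose in CLP against Sham, and Ccnd2 (-0.46 ± 0.14), Ccnd1 (-0.33 ± 0.12) and Cdk4 (-0.24 ± 0.06) fell. Among stimulated animals Myc rose (0.70 ± 0.09) and Ccnd2 (-0.38 ± 0.14) and Ccnd1 (-0.33 ± 0.12) fell; without any 1 of Sham+VNS replicates 2 and 3 or CLP+VNS replicates 1 and 11, this list had 1 higher and 0 lower called.

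Some libraries stood at an end of their group's range in many of the 39 genes. Sham replicate 2 was the highest of its group in 21 of the 39 genes and the lowest in 1, and Sham replicate 3 was the lowest in 16. Sham+VNS replicate 5 was the highest of its group in 16, and Sham+VNS replicate 1 the lowest in 18 and the highest in 0. CLP replicate 1 was the lowest of its group in 15, and CLP+VNS replicate 11 in 14. The same count was not made over all tested genes, and the share of the variation that single libraries carried was not computed. In Cdc6, Mcm5 and Ccne1, the range within Sham was wider than the difference between the means of CLP and Sham, as the map of all libraries shows.

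**Figure D5:**
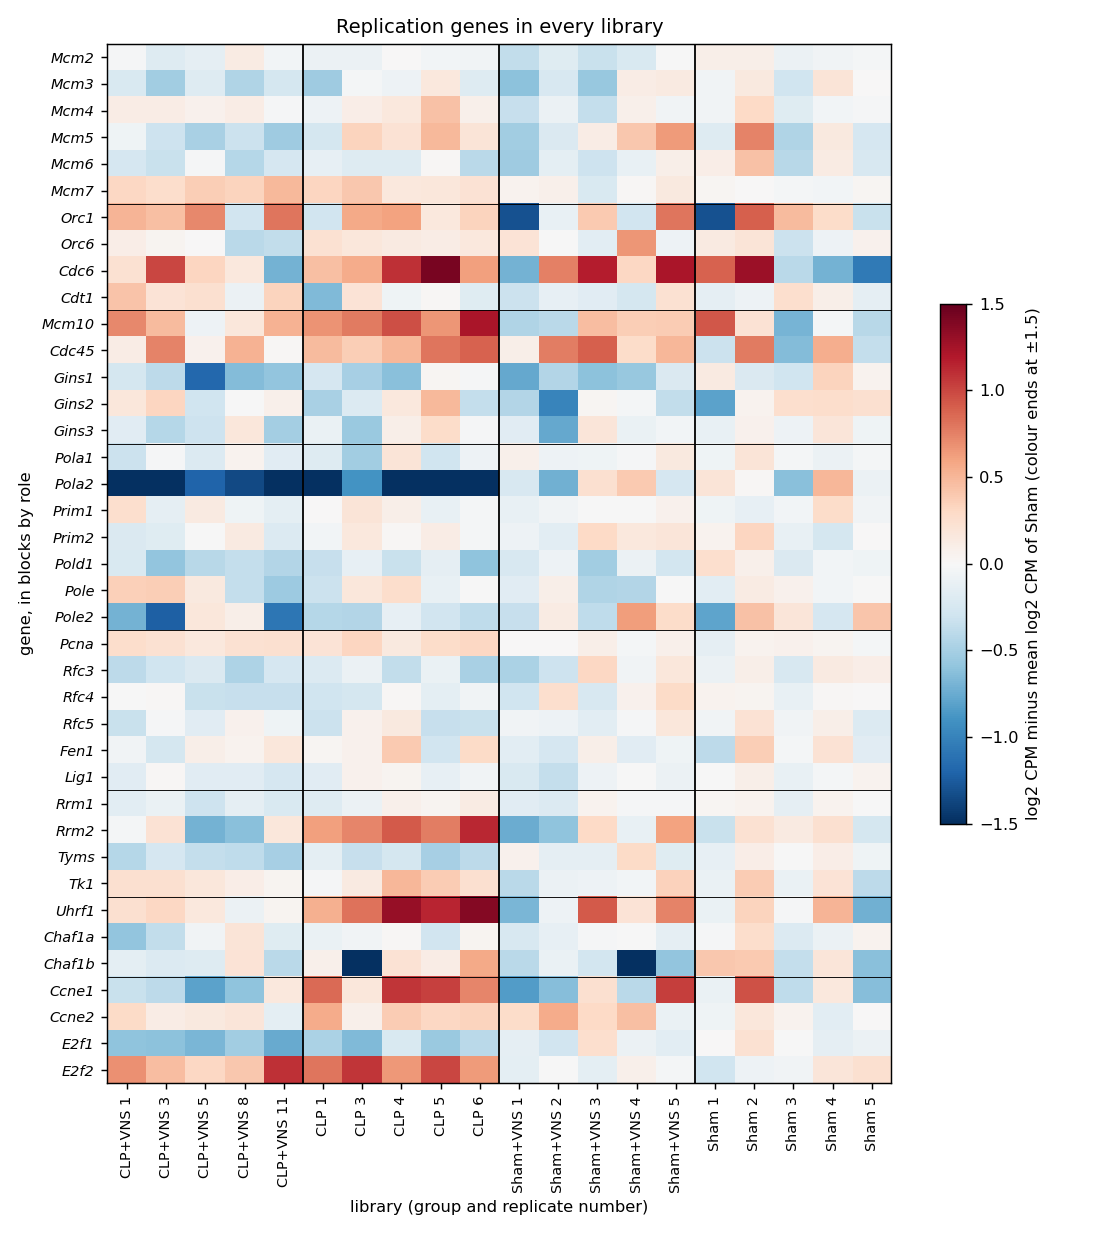
Log2 CPM minus the mean log2 CPM of Sham (colour, ends at ±1.5) of the 39 genes (rows, in blocks by role) in each of the 20 libraries (columns, grouped as CLP+VNS, CLP, Sham+VNS and Sham). Pola2 and E2f1 are blue, E2f2 is red and Mcm7 pale red across CLP+VNS and CLP, Rrm2 and Uhrf1 are red in CLP, and Orc1, Cdc6 and Ccne1 vary from blue to red within a control group.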

How the data were processed

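Poly(A) RNA of rat lung had been made into strand-marked (dUTP) libraries and sequenced in 150-base pairs, per the labels' protocols; the build was mRatBN7.2, per the submitters' processing notes, and the sources used here name no aligner, counter or annotation. The authors deposited expected counts per gene and transcript, of which 91.5% were whole at the gene level, with FPKM and TPM computed by them, and a table of normalised signal that was not used. Expected counts were rounded here to whole numbers. The deposited FPKM were not used, and the deposited TPM served for levels between genes and for limma. Replicate numbers come from the labels, which speak of 5 rats per group.

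Genes were kept with edgeR's filterByExpr (minimum count 10) and scaled by TMM. All 20 libraries, with 16 residual degrees of freedom, entered 1 robust quasi-likelihood fit without covariates (R 4.3.3, edgeR 4.0.16), tested two-sided and adjusted by Benjamini-Hochberg over the 14794 genes; called means an adjusted p below 0.05. The 5 comparisons were CLP against Sham, CLP+VNS against Sham+VNS, Sham+VNS against Sham and CLP+VNS against CLP, with the interaction, the fourth minus the third. CLP+VNS against CLP shares libraries with the first 2. The SE is that of the log2 fold change. Groups of 5 against 5 are apart where every value of one exceeds every value of the other. Alternatives were other filters, RLE size factors, scaling by the library total, DESeq2 1.42.0, the groups alone, a replicate block, limma 3.58.1 on log2(TPM + 1), and leaving out each library. The fit was tested on simulated data. Figures and sequence searches used Python 3.11.15 with pandas 2.3.3, numpy 2.4.6 and matplotlib 3.10.9.

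The members, the lists and the tests were chosen with earlier results of these data known. Outside the 39 genes, those named in a list of S phase, regulator or mitosis genes were taken from the 3 highest and 3 lowest log2 fold changes among those called in each comparison whose mean reached 1 CPM, and from any tested E2F, RB or inhibitor gene; cell type markers are given as counts and sums, with 1 gene named for some lists; genes that overlap a member are named for that reason. Transcripts were described from 10% of a gene's TPM. Without the predicted transcript of Pola2, the gene was refitted as an alternative added after seeing the data.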

Additional observations from a re-analysis of the deposited data

Results flagged for a closer look

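Of 156 values tested (39 genes in 4 groups of 5 libraries), 5 had 1 library whose gap to the next, as a share of the group's range, was above Dixon's critical value of 0.71, where chance gives about 1 in 20 groups, 7.8 here. Pola2 was 13.7 CPM in CLP replicate 3 and 7.21 to 8.47 CPM in the other CLP libraries. Gins2 was 3.39 CPM in Sham replicate 1 and 6.15 to 7.11 CPM in the other Sham libraries. Pola1 was 16.5 CPM in Sham replicate 2, with the others at 13.6 to 14.2 CPM. Prim1 was 22.1 CPM in Sham replicate 4, with the others at 16.7 to 17.8 CPM. Lig1 was 28.3 CPM in CLP+VNS replicate 3, with the others at 23.5 to 24.9 CPM. No gene of the 39 had an adjusted p below the threshold in the interaction.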

How the results depend on the processing

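The count of called genes among the 39 ran from 8 to 12 in CLP against Sham and from 6 to 7 in CLP+VNS against Sham+VNS when each library was left out in turn, and was 0 throughout in the other 3 comparisons. Under the other alternatives it ran from 8 to 11 and from 4 to 6, and it was 0 in the others except with DESeq2 in CLP+VNS against CLP, where it was 1, Rrm2 (log2 fold change -0.99, DESeq2 adjusted p = 0.013); the cause was not tested. Over the single genes, 5371 values stayed on the same side of the threshold, 22 were no longer called, 7 became called and 1 called value turned its direction; among the 5371, 209 that were called in neither setting, with log2 fold changes of 0.19 or less in size, also had the other sign. The called value was that of Pola2, which without its predicted transcript stood at 0.0575 in CLP+VNS against Sham+VNS (edgeR adjusted p = 0.874), where only the other transcripts' counts remained. Uhrf1, Pcna, Tyms, E2f1 and E2f2 kept their call in CLP against Sham under all 28 alternatives.

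Equal replicate numbers are not said to mark shared animals or days. Of 22 same-numbered pairs, 3 had a correlation of deviations over 0.1 (range -0.186 to 0.183), and 5 correlated best with their own number. With a replicate block the calls were 8 in CLP against Sham (5 higher, 3 lower), without Mcm10 (edgeR adjusted p = 0.154), Pold1 (0.253) and Rrm2 (0.055), and 4 in CLP+VNS against Sham+VNS (2 higher, 2 lower), without Pcna (0.0602) and Tyms (0.0786); libraries with a number no other group shares carry no information there. With 5 animals a group, genes such as Orc1, with 8.85 counts per library on average, allow only large differences to be called. The edgeR p-values weigh a difference between groups against a spread between animals that the fit estimates with information from all tested genes.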

Other observations

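Levels of the 39 genes were low for lung. The median of their mean TPM was 4.92 in CLP+VNS, 5.63 in CLP, 5.50 in Sham+VNS and 5.24 in Sham, where the median tested gene stood at 15.5, 15.4, 16.3 and 16.6 TPM in the same groups. Of the 39, 26 had the same sign in CLP against Sham and in CLP+VNS against Sham+VNS, which share no libraries, where 80.1% of all tested genes did. Predicted transcripts led other genes besides Pola2. Among called genes these were Mcm7 (XM_006249005, 58.9% of the gene's TPM), Pold1 (85.3%), E2f2 (84.8%), Tyms (84.3%), Uhrf1 (59.1%) and Ccne2 (53.0%). Among the others they were Chaf1a (100%), Mcm5 (XM_039097563, 92.4%), Orc1 (43.5%), Prim2 (41.1%) and Fen1 (38.8%). Only Pola2 was refitted without its predicted transcript. Of the 39 genes, 12 had a single transcript.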
